A study of Homo sapiens with 2 samples.

Results

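Exons of the genes for histone modifying enzymes were examined in HEK293T cells, a human embryonic kidney line, with and without amiloride, a sodium channel blocker used as a diuretic. The genes were chosen by symbol alone: KDM, KMT, KAT, SETD, HDAC, SIRT, PRMT or EHMT followed by a digit, or one of MLL, MLL2, MLL3, MLL4, MLL5, EP300, CREBBP, EZH1, EZH2, NSD1, DOT1L and ASH1L. The authors' table of skipped exons listed 733 distinct exons in 71 such genes, out of 67154 exons in 11965 genes. Polyadenylated RNA was sequenced from 1 library of untreated cells and 1 library of cells kept in 300 µg/mL amiloride for 6 h. Neither condition was replicated, so no error between replicates can be given, and every difference compares those libraries rather than the conditions.

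The events were compared by rMATS, which sets the reads of the form with a given exon against those of the form without it. Each event pairs an exon with 1 upstream and 1 downstream flanking exon, so that an exon can be listed in several events. An exon was called when any of its events had a false discovery rate (FDR) under 0.1 in the authors' table, and the event of lowest FDR stands for it unless another is named. The inclusion level difference runs from -1 to 1 and subtracts the level in the second numbered library from that in the first. The libraries are numbered without a condition, so a sign cannot be assigned to amiloride, and the columns of reads and levels per library were not used. The level of an exon in each library and the depth behind a value are therefore not given. The effective lengths in the table show that the form with the exon was also credited with reads lying within the exon, so a difference need not come from junction reads. An FDR of 0 is printed as the table lists it, and gene expression was not analysed here.

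Histone modifying enzymes write or erase small chemical groups on the tails of histones, the proteins that package DNA. Lysine and arginine methyltransferases add methyl groups and demethylases remove them. Acetyltransferases add acetyl groups, which loosen chromatin at active genes, and deacetylases and the NAD-dependent sirtuins take them off. Several of the enzymes also act on other proteins: HDAC6 deacetylates tubulin and SETD3 methylates actin. Where the length of a coding exon is not divisible by 3, skipping it shifts the reading frame.

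The following exons, 1 or more from each class, are shown because the results below turn on them, and they are not the full set of large differences. They are written 5′ to 3′ with 20 bases of the upstream intron and 6 bases of the downstream intron in lower case and the exon in capitals, so that the junction between cases marks each splice site. Coordinates and bases are those of GRCh37, and exon numbers follow the canonical transcript in release 44 of GENCODE.
KMT2B exon 29 (chr19:36224498-36224587, plus strand): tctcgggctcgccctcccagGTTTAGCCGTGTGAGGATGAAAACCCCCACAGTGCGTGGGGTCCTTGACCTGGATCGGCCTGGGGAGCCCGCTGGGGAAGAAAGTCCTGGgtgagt
EZH2 exon 3 (chr7:148543562-148543690, minus strand): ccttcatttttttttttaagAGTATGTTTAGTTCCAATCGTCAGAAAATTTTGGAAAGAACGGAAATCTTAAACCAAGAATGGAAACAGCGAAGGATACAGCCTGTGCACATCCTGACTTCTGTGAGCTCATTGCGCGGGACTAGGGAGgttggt
PRMT9 exon 2 (chr4:148601474-148601622, minus strand): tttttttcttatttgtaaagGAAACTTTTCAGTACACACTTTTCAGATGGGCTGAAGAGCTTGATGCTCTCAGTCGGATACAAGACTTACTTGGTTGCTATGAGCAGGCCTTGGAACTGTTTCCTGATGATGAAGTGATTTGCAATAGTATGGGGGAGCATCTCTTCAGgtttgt
CREBBP exon 11 (chr16:3827614-3827658, minus strand): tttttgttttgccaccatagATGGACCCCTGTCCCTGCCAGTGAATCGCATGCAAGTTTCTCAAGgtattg
KAT6B exon 6 (chr10:76729778-76729859, plus strand): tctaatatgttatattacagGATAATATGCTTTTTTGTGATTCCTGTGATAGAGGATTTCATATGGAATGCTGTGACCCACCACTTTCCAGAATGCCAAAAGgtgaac
KDM2A exon 4 (chr11:66948791-66948869, plus strand): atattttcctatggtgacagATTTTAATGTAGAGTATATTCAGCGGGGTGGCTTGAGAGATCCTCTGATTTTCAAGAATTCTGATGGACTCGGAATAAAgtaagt
KDM6A exon 16 (chrX:44921892-44921993, plus strand): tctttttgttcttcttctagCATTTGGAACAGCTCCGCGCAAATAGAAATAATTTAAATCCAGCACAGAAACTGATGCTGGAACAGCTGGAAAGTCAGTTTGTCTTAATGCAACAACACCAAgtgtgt
KDM6A exon 23 (chrX:44941960-44942034, plus strand): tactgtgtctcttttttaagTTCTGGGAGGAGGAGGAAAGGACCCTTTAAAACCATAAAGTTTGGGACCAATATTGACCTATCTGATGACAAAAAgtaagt
SIRT7 exon 6 (chr17:79872480-79872578, minus strand): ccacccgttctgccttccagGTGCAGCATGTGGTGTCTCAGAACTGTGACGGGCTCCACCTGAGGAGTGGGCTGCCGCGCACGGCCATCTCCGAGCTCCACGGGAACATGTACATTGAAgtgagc
HDAC3 exon 4 (chr5:141009611-141009692, minus strand): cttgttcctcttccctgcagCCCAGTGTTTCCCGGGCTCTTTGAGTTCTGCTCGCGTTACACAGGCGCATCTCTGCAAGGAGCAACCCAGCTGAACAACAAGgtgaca
HDAC9 exon 7 (chr7:18668973-18669104, plus strand): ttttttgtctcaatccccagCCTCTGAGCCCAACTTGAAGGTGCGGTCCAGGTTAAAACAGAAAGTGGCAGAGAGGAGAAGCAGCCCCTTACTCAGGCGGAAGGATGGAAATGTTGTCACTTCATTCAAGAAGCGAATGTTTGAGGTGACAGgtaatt
The exons of KDM2A, SIRT7 and both of KDM6A end in A, in place of the G that is the usual last base of an exon. The 45-base exon of CREBBP is the shortest in the set, and HDAC9 exon 7 is the only one of negative sign.

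Of the 733 exons, 301 were called (41.1%, 95% Wilson interval 37.6 to 44.7), against 35.8% of all exons listed. A call was made in 65 of the 71 genes. HDAC11, KAT2A, KDM1B, KDM3A, SETD7 and SIRT3 had none, with between 1 (KDM3A) and 10 (KAT2A, KDM1B) exons listed. Intervals cover counting error only, and exons of 1 gene are not independent, so that the share of called exons is a description of these libraries. Exons of the enzyme genes were listed in more events than usual, 1.89 per exon against 1.69 over all exons, which gives an exon more chances to be called. Among exons listed in exactly 1 event, 121 of 385 were called (31.4%), against 25.3% over all such exons.

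The sign was shared by nearly all calls. Inclusion was higher in the first numbered library for 292 called exons (39.8% of those listed, against 34.2% of all exons) and lower for 9 (1.23%, against 1.54%). The median difference of called exons was 0.107, with quartiles of 0.053 and 0.202, and the median over all called exons was 0.109. In 170 exons a called event also differed by 0.1 or more in size (23.2%, against 20.4% of all exons). The sizes were thus close to those of other genes, while the share of exons called stood above that of all exons.

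The choice of event changed many of the sizes. Each exon was instead represented by its nearest event, the listed event with the shortest span between its flanking exons. In these events 224 exons were called (30.6%, interval 27.3 to 34.0), against 27.1% of all exons. The span counts both sides together. A nearest event can therefore reach past a neighbouring exon, or have a more distant flank on a single side than another event. The remaining 77 of the 301 calls rest on events whose flanking exons lie further apart, as do 5805 of the 24008 calls over all exons. Over the 301 called exons, the median difference in the nearest event was 0.057, against 0.06 over all called exons. Of the 17 called exons with a difference over 0.5 in size, 8 kept it in their nearest event: KMT2B exon 29, KMT2C exon 19, CREBBP exon 11, KAT6B exon 6, KDM2A exon 4, KDM4D exon 2, SIRT7 exon 6 and HDAC9 exon 7. All of these but KAT6B exon 6 were listed in 1 event only. That event is also the nearest by construction, so their sizes could not change. Over all exons, 1556 called exons were over 0.5 in size, and 778 were over it in a called nearest event. The dependence on the choice of event was thus much the same over all exons. Ranges and medians over the exons of a gene or class come from events of lowest FDR unless nearest events are named.

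**Figure D1:**
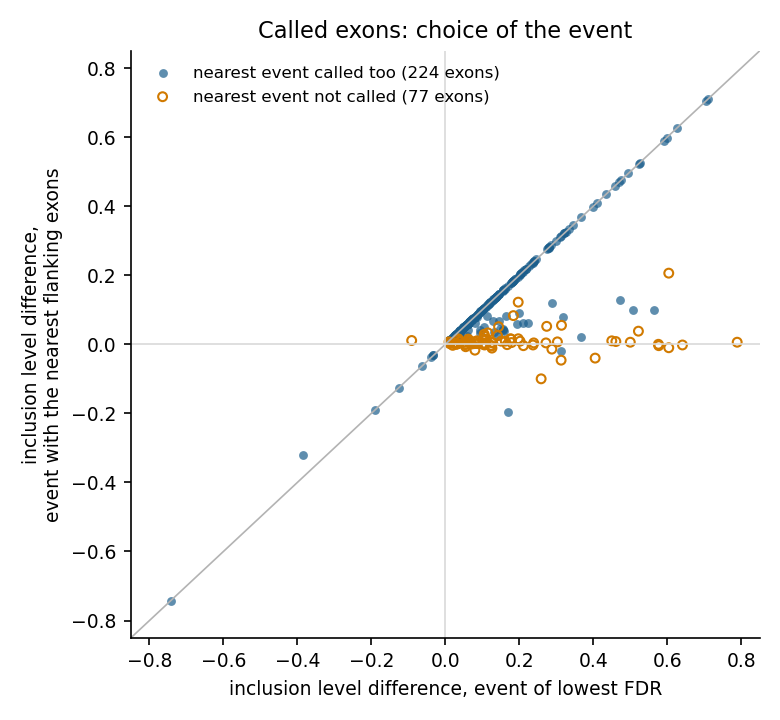
Each point is 1 of the 301 called exons, with the inclusion level difference of its lowest-FDR event on the horizontal axis and of its event with the nearest flanking exons on the vertical axis (first minus second numbered library, no unit). Filled points are exons whose nearest event was called too (224), open points those where it was not (77), and the open points lie mostly along 0 on the vertical axis while exons on the diagonal have the same event for both.

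By class, the share of exons called lay between 29.7% in sirtuins and 47.4% in deacetylases. Lysine methyltransferases (107 of 260 exons), demethylases (70 of 168) and arginine methyltransferases (23 of 56) were within 1 percentage point of each other, at 41.2%, 41.7% and 41.1%. Acetyltransferases had 36 of 98 exons called (36.7%, interval 27.9 to 46.6) and sirtuins 11 of 37 (29.7%, interval 17.5 to 45.8). The 35.8% of all exons lay within the interval of every class except deacetylases (38.4 to 56.5). In nearest events the deacetylases' share was 27.2% (interval 19.9 to 36.0), against 27.1% over all exons, and that of arginine methyltransferases was 16.1% (interval 8.69 to 27.8). The high share of deacetylases was therefore not seen in nearest events. There, lysine methyltransferases stood at 33.5% (interval 28.0 to 39.4), the only class whose interval excluded the 27.1%.

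**Figure D2:**
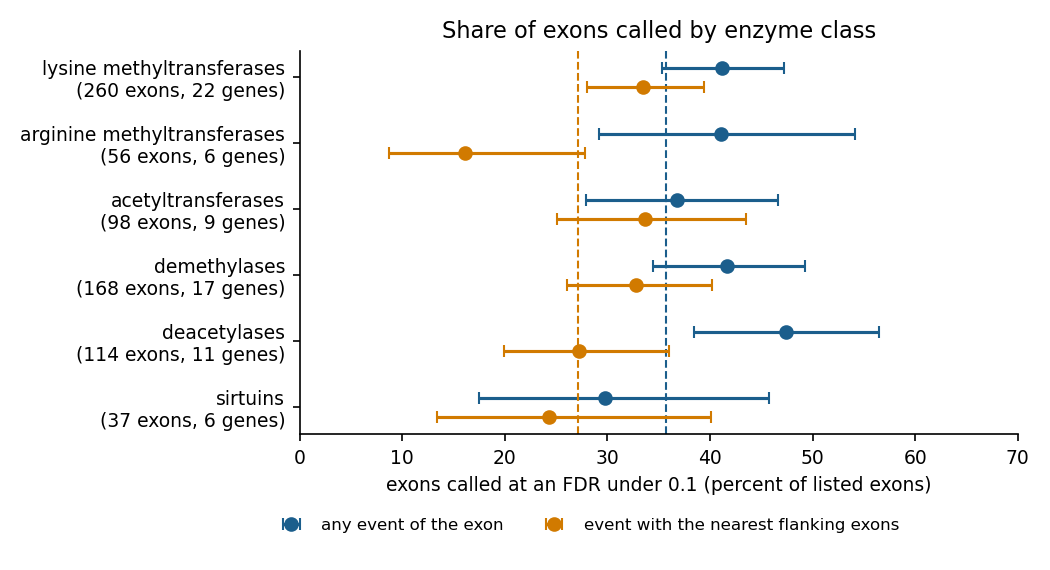
Points give the percent of listed exons called at an FDR under 0.1 in each enzyme class, from any event of the exon and from the event with the nearest flanking exons, with 95% Wilson intervals (counting error only), and dashed lines give the same over all listed exons (35.8% and 27.1%). Deacetylases stand highest by any event (47.4%) and at 27.2% by the nearest event.

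**Figure D3:**
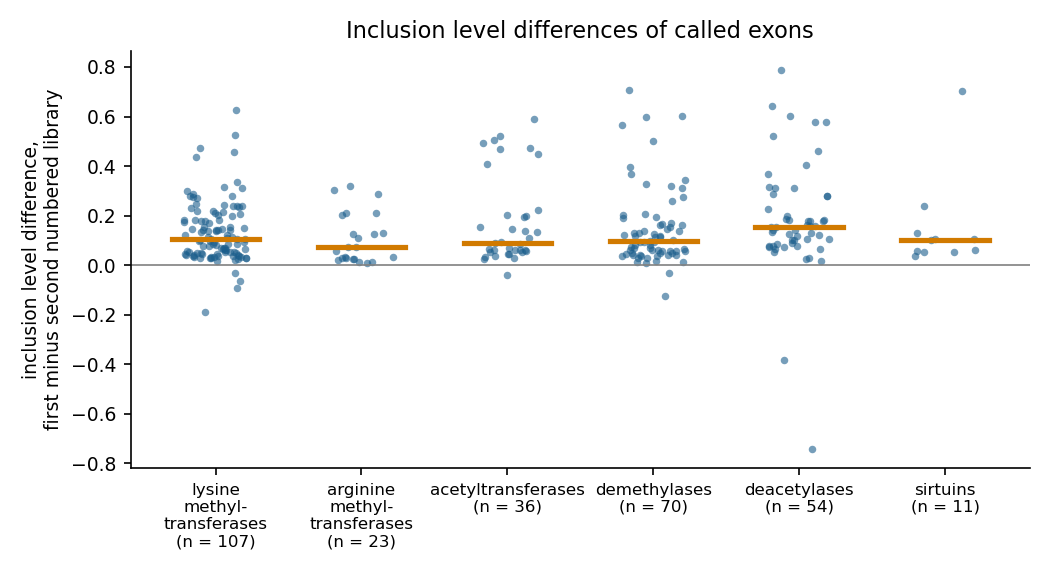
Each point is a called exon, placed by its inclusion level difference (first minus second numbered library, no unit) in the event of lowest FDR, and bars are class medians, from 0.072 in arginine methyltransferases to 0.156 in deacetylases. Nearly all points lie above 0, and the lowest is HDAC9 exon 7 at -0.742.

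Among the lysine methyltransferases, 103 of the 107 called exons were positive and the median difference was 0.105. KMT2B, which methylates lysine 4 of histone H3, had the largest difference: 0.625 for exon 29 of 37, a 90-base exon between introns of only 88 and 76 bases (FDR of 0 in the authors' table). Exon 19 of KMT2C, another H3 lysine 4 methyltransferase, differed by 0.525 (FDR 1.99e-05 in the authors' table), and its 182 bases shift the frame. SETD5 exon 6 (59 bases) differed by 0.475 and KMT2E exon 4 (115 bases) by 0.334, both with an FDR of 0 in the authors' table. All 4 of these values come from the nearest event. In KMT2A, the founding MLL gene, exons 8 and 28 differed by 0.313 and 0.299, while the other 6 called exons lay between 0.041 and 0.085. SETD7, which methylates histone and other proteins, had 7 exons listed and no call.

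EZH2, the catalytic subunit of Polycomb repressive complex 2, had 11 of 16 exons called, counting shorter forms of exons 3 and 8 separately. All were positive, with differences from 0.017 to 0.232. The largest was exon 3, at 0.232 for the 129-base form and 0.214 for a form of 102 bases that ends earlier. With a more distant downstream exon, the same forms were at -0.137 and -0.216 in uncalled events (FDR 0.169 and 0.113 in the authors' table). Further called events of exon 13, with more distant flanks and higher FDR, were at 0.726, 0.525 and 0.767 (FDR 0.0206, 0.0439 and 0.0802 in the authors' table). Calls then ran through exons 11 to 15, at 0.033, 0.132, 0.143, 0.055 and 0.105. These values come from events with more distant flanks, and in nearest events exons 12, 13 and 15 were still called at 0.037, 0.023 and 0.051, while exons 11 and 14 were not (0.012 and -0.007). EZH1, its paralog, had 7 of 13 exons called with a median difference of 0.179. For EZH2 the median in events of lowest FDR was 0.055.

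All 23 called exons of arginine methyltransferases were positive, with a median difference of 0.072. PRMT9 exon 2 (149 bases) differed by 0.321 in its nearest event (FDR 3.83e-08 in the authors' table). PRMT2 exon 8 differed by 0.303 in an event that reaches to a further downstream exon, by 0.279 in a second such event, and by 0.007 in its nearest event (FDR of 0, 0 and 0.85 in the authors' table). All 3 events of PRMT7 exon 12, an 84-base exon, were called, at 0.209, 0.166 and 0.062, and the last is the nearest. PRMT3 exon 10 differed by 0.072. PRMT5, the main enzyme of symmetric arginine dimethylation, which also methylates Sm proteins of the spliceosome, had 3 of 7 exons called, and these differed by no more than 0.012. PRMT1, the main enzyme of asymmetric dimethylation, had 3 of 7 called at 0.027 to 0.034. For both genes the skipped-exon calls are thus of small size.

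Of the acetyltransferases, CREBBP and EP300 are paralogous coactivators with many exons of like length. CREBBP had 12 of 23 exons called, of which 11 were positive, with a median of 0.151. Exon 11 differed most, by 0.590 (FDR of 0 in the authors' table), and its 45 bases keep the frame. In nearest events, exons 8, 5 and 23 followed at 0.203, 0.155 and 0.138. Exon 24 differed by 0.450 and 0.185 in called events that reach past neighbours on both sides. Its nearest event was at 0.010 and not called, and it joins exon 23 to exon 27, so it also reaches past exons 25 and 26. EP300 had 8 of 18 exons called, all of them in nearest events and all between 0.025 and 0.068.

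KAT6B, a MYST family acetyltransferase, differed by 0.523 at exon 6 (82 bases, shifting the frame, FDR of 0 in the authors' table). Its paralog KAT6A differed by 0.409 at exon 3, the single call among its 5 exons. For KAT2B exon 14 the difference was 0.506 in 1 event and 0.098 in the nearest, both called. KAT2A, the paralog of KAT2B, had 10 exons listed and none called, whereas KAT2B had 5 of 11 called. KAT2A and KAT2B therefore differed in the number of their calls. CREBBP and EP300 differed in the size of their largest call but less in number, with 9 of 23 and 8 of 18 exons called in nearest events.

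Demethylases had 70 called exons, 68 of them positive, with a median of 0.0965. KDM4D exon 2, a noncoding exon of 95 bases, differed by 0.709, and KDM2A exon 4, a 79-base coding exon, by 0.598 (FDR of 0 for both in the authors' table). KDM6B exon 18, between introns of 98 and 154 bases, differed by 0.398. KDM8 exon 6 differed by 0.604, 0.478 and 0.199 in called events that reach past a neighbour and by -0.010 in its nearest event (FDR of 0.000113, 0.00545, 0.00383 and 1 in the authors' table). KDM1A, the lysine 4 demethylase LSD1, had 8 of 14 exons called between 0.010 and 0.167, of which the largest, exon 13, was at -0.001 in its nearest event. Its paralog KDM1B had 10 exons listed and none called.

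KDM6A, the X-linked demethylase of lysine 27 of histone H3 and so the counterpart of EZH2, had the most called exons of any enzyme gene, 13 of 18. This count includes a shorter form of exon 27 beside the full form, and CREBBP followed with 12 called exons. In nearest events 12 of the KDM6A exons were called. Exon 16 (102 bases) differed by 0.368 and exon 23 (75 bases) by 0.311, both in their single event, and both keep the frame. The other positive exons lay between 0.042 and 0.189. Exon 14, which GENCODE also lists as skipped, was the exception: -0.126 between exons 13 and 15 (FDR 0.00115 in the authors' table), and 0.078 in a second called event that joins exon 13 to an exon beyond exon 15 (FDR 0.0887 in the authors' table). Its uncalled events, with a more distant upstream exon, were at 0.021 with exon 15 downstream and at 0.076 with the exon beyond it. The sign at exon 14 thus varied with the flanking exons.

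**Figure D4:**
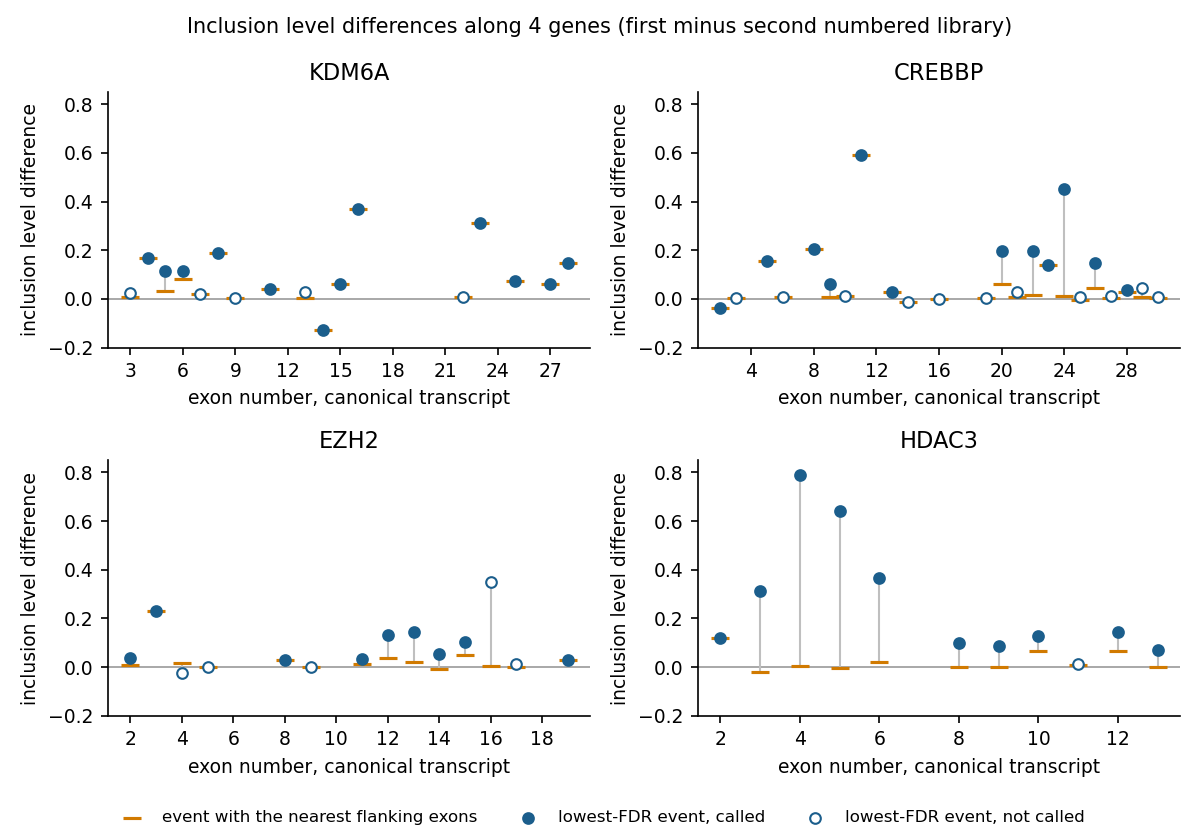
Inclusion level differences (first minus second numbered library, no unit) are plotted by exon number on the canonical transcript for KDM6A, CREBBP, EZH2 and HDAC3. Filled circles are called and open circles uncalled exons in their lowest-FDR event, dashes mark the event with the nearest flanking exons, and in HDAC3 the circles of exons 3 to 6 (0.312 to 0.789) stand far above their dashes (-0.020 to 0.021) while in KDM6A most coincide.

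Deacetylases had 54 of 114 exons called, with a median difference of 0.156, the highest of the classes, and 2.29 events per exon. HDAC3, the catalytic subunit of nuclear receptor corepressor complexes, had 10 of 11 exons called, all positive. Exon 4 differed by 0.789 in the event that joins exon 2 to exon 7, by 0.132 and 0.048 in events with 1 of these flanks, and by 0.006 between its neighbours, exons 3 and 5 (FDR of 0, 5.06e-08, 1.06e-05 and 1 in the authors' table). Exon 5 differed by 0.641 in its called event and by -0.002 in the nearest. In nearest events, 5 exons of HDAC3 were called, between -0.020 and 0.118, and exon 2 was the largest. The large values of HDAC3 thus belong to events in which several exons between exon 2 and exon 7 are skipped at once. Without HDAC3, 42.7% of deacetylase exons were called.

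HDAC10 had 9 of 13 exons called and a median of 0.313. In nearest events 5 of its exons were called, between -0.320 and 0.278. Its exon 9 differed by 0.604 and by 1 in called events that reach past a neighbour and by 0.206 in the nearest event (FDR of 0.000655, 0.0321 and 0.156 in the authors' table). HDAC8 exon 3 differed by 0.577 and by -0.004 in the nearest event, and HDAC2 exon 5, which was chosen after its values were seen, by 0.576 and 0. HDAC1 exon 7 differed by 0.178 in its nearest event, and the other HDAC1 call was 0.017. HDAC6, the tubulin deacetylase, had 8 of 19 exons called from 0.065 to 0.280, with the largest at exon 20 in its nearest event. HDAC11, the single class IV deacetylase, had 7 exons listed and none called.

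SIRT7, a nucleolar sirtuin that removes acetyl groups from lysine 18 of histone H3, held the large difference among sirtuins: 0.705 for exon 6, a 99-base exon ahead of an intron of 73 bases (FDR of 0 in the authors' table). Exons 3, 2 and 5 of SIRT7 differed by 0.237, 0.101 and 0.057, and all 4 values come from nearest events. SIRT5 exon 8 differed by 0.129, SIRT6 exon 3 by 0.106 and by -0.002 in its nearest event, and SIRT1 exon 4 by 0.054. SIRT3, a mitochondrial sirtuin, had 5 exons listed and none called.

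Lower inclusion in the first numbered library was called for 9 exons. HDAC9 exon 7 had the largest size, -0.742, at an FDR of 0.0302 in the authors' table, and it was the only call among 3 exons of that gene. HDAC10 exon 3 (97 bases) was at -0.384 and -0.320, both of its events being called (FDR 0.000428 and 0.00152 in the authors' table). SETD9 exon 2 followed at -0.191 and KDM6A exon 14 at -0.126. SETD3 exon 6 was at -0.091, and at 0.011 in its nearest event, which was not called. That nearest event has a closer upstream but a more distant downstream exon, so it does not join the closest listed exons on both sides. The rest were small: KMT2D exon 29 at -0.064, CREBBP exon 2 at -0.038, and NSD1 exon 7 and KDM2B exon 17 at -0.032 each. The exon of KDM2B lies outside the rule for named exons and is given to complete the count. In nearest events, SETD5 held 1 more, a 225-base exon at -0.196 whose lowest-FDR event was at 0.169, and HDAC3 exon 3 was at -0.020 against 0.312. Negative exons of CREBBP, SETD9, NSD1, KMT2D and SETD3 were 713, 368, 271, 242 and 257 bases long, and those of KDM6A, HDAC9, KDM2B and HDAC10 were 156, 132, 114 and 97 bases long, against a median of 110 bases for called exons.

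Called and other exons of the enzyme genes differed in length, in splice site sequence and in annotation. The median length was 110 bases for called and 124 for other exons. Of exons up to 60 bases long, 53.1% were called (34 of 64), against 46.9% above 60 and up to 120 bases, 40.4% above 120 and up to 180, and 18.6% (21 of 113) above 180. Over all exons the same bins gave 47.1%, 41.6%, 30.5% and 21.4%. The share over all exons lay within the Wilson interval of the enzyme genes in every bin except that above 120 and up to 180 bases (34.3 to 46.9).

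**Figure D5:**
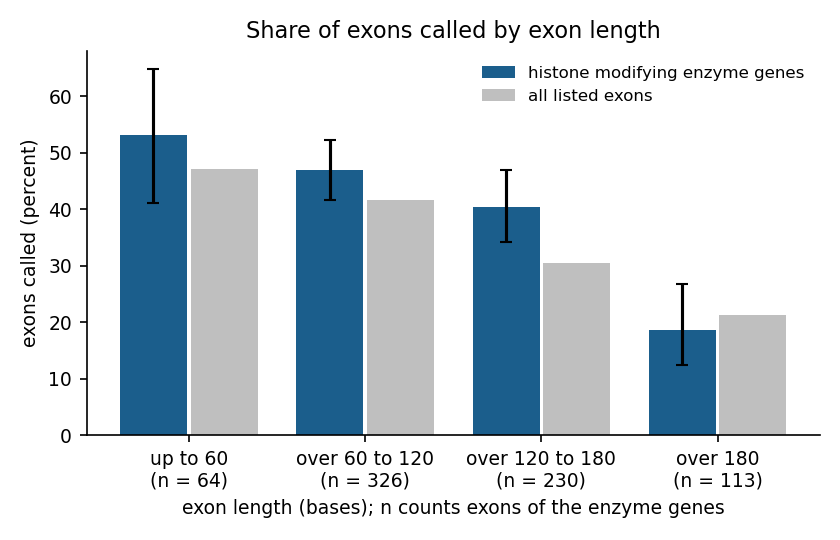
Bars give the percent of exons called at an FDR under 0.1 by exon length in bases, for the exons of histone modifying enzyme genes (with 95% Wilson intervals, counting error only) and for all listed exons. In the enzyme genes the share is 53.1% for exons up to 60 bases and 18.6% for those over 180.

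Splice site scores sum, over the bases of a site, the log2 ratio of each base's frequency at annotated human sites to an equal frequency, so that a higher score is closer to the common sequence. The 5′SS score (9 bases) averaged 7.64 ± 2.72 (SD, n = 301 exons) in called and 8.11 ± 2.60 (n = 432) in other exons, a difference of -0.47 against -0.26 over all exons. For the 3′SS (23 bases) the means were 8.77 ± 3.07 and 9.19 ± 3.21, a difference of -0.42 against -0.25. Both differences are small beside the spread among exons. KMT2C exon 19, with the 5′SS ATGgtactc, had a score of 2.69, while SETD5 exon 6, with CAGgtgagc, had 10.3, and both differed by more than 0.4 in inclusion. When calls were taken from nearest events, the 5′SS difference was -0.49 and the 3′SS difference -0.029.

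The last base of the exon was G in 75.4% of called (227) and 81.5% of other exons (352), close to 75.4% and 80.8% over all exons. The length was divisible by 3 in 37.2% of called exons (interval 31.9 to 42.8) and in 39.8% of other exons (interval 35.3 to 44.5), and these intervals overlap. GENCODE lists the skipping junction of at least 1 event of the exon for 37.9% of called exons (interval 32.6 to 43.5). For other exons the share was 17.8% (interval 14.5 to 21.7), against 34.9% and 20.9% over all exons. Exons in several events can match more junctions. Among exons listed in 1 event the shares were 28.9% and 12.5%. For most called exons, therefore, no skipping junction of their listed events was annotated. Other annotated junctions across an exon were not searched.

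Called exons were listed side by side at times. Among 462 pairs of listed neighbours on the canonical transcripts, both were called in 95, 1 in 196 and neither in 171. Events that reach past a neighbour can call both exons from the same skipping reads, so the pairs are not independent. Of the 713 listed exons on these transcripts, 290 were called. Pairs were not counted over all exons, so whether calls lie together more often here than elsewhere was not tested.

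In the table of mutually exclusive exons, 220 of 539 events in these genes were called (40.8%, interval 36.7 to 45.0), against 39.3% over all events. Of the 220, 177 used at least 1 exon already called as a skipped exon and 43 did not. Positive and negative signs were mixed, at 130 and 90, since the sign there tells which of the exons was favoured. HDAC8, SETD4, CREBBP, KDM6A and EZH2 had the most, with 19, 16, 15, 15 and 14 called events.

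Alternative splice sites and retained introns were listed rarely. Called were 11 of 19 alternative 5′SS events (57.9%, against 28.2% over all), 2 of 10 alternative 3′SS events (20%, against 23.0%) and 5 of 7 retained introns (71.4%, against 48.2%). The Wilson intervals, 36.3 to 76.9, 5.67 to 51.0 and 35.9 to 91.8, are wide because the numbers are small, and 4 of the 5′SS calls are events of 1 region of KAT6B that share sites. There, use of the longest form of the exon ahead of intron 8 over a form 549 bases shorter differed by 0.592 and 0.335 with different downstream exons. The difference was -0.375 for the middle over the shortest form and -0.298 for the longest over the shortest form.

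The retained introns lay in NSD1 (-0.302), KAT5 (-0.188), SETD4 (0.149), KAT8 (-0.123) and KDM2B (0.111). Those of KAT5, an acetyltransferase also named TIP60, and KAT8, the H4 lysine 16 acetyltransferase, are 99 and 294 bases long. For NSD1, a methyltransferase of lysine 36 of histone H3, the stretch of 740 bases shares its first base with an alternative 5′SS event of 830 bases, which was at 0.103. The alternative 3′SS of SETD4 (49 bases, -0.326) and alternative 5′SS of PRMT5 (85 bases, 0.260) and SIRT3 (146 bases, -0.170) belong to the first intron. With a nearer downstream exon, the same stretch of PRMT5 was called at -0.006 (FDR 0.0874 in the authors' table). Of the 18 calls of these types, 9 were positive and 9 negative, with the 4 events of KAT6B and both of PRMT5 among them.

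Short shifts of a splice site are shown because the bases that an mRNA gains or loses can be read directly. These 3 were chosen after their values were seen. The stretch present only in the longer form is in capitals, with 10 bases on either side in lower case.
KMT2A (chr11:118362025-118362033, plus strand): aatctttcagGTACAGAAGgttggagtct
EZH2 (chr7:148523546-148523560, minus strand): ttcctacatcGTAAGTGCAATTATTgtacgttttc
KDM5C (chrX:53246457-53246459, minus strand): ctgtccccagCAGtgtaacacac
In KMT2A the longer form adds 9 bases before intron 14 and differed by 0.097 (FDR 0.00456 in the authors' table). In EZH2 the 15 bases start with GTAAG, so the shorter form uses that site and the longer form the gtacg that follows, and the difference was -0.032 (FDR 0.00206 in the authors' table). In KDM5C, an X-linked lysine 4 demethylase, CAG follows an upstream cag, so that the acceptors lie 3 bases apart, and the difference was 0.039 (FDR 0.0598 in the authors' table). All 3 shifts keep the reading frame, and all 3 differences are under 0.1 in size.

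Partner genes, which encode other subunits of the complexes in which these enzymes work, were taken from a list of 65 genes, of which 62 had exons listed. Of their 590 exons 250 were called (42.4%, interval 38.4 to 46.4), in 58 genes, against 35.8% of all exons, and 238 of the calls were positive (95.2%, against 95.7% over all called exons). In nearest events 193 were called (32.7%, against 27.1%). Of 18 called partner exons over 0.5 in size, 8 kept that size in their nearest event, which an exon listed in 1 event does by construction. The median difference of called exons was 0.101 in events of lowest FDR and 0.0555 in nearest events. In Polycomb repressive complex 2, all 7 exons of EED and 6 of 11 of SUZ12 were called. SUZ12 exon 3 differed by 0.872, and by 0.003 in its nearest event, which was not called. The core subunits shared by the KMT2 complexes, WDR5, RBBP5 and ASH2L, had 4 of 8, 6 of 8 and 5 of 10 exons called, and DPY30 none of 2.

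NCOR1, which encodes a corepressor that binds HDAC3, had 4 of 22 exons called. ARID4A exon 14 (0.768) and ING3 exon 5 (0.715) held large differences in their nearest events. An exon of MLLT10, a cofactor of DOT1L, was at 0.974 and RCOR3 exon 10 at 0.741, but their nearest events, at -0.214 and 0.017, were not called. EPC1, a subunit of the NuA4 acetyltransferase complex, had a single call, at -0.763 in its nearest event. MTA2, PAXIP1 and SUPT7L had none, with 10, 6 and 5 exons listed.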

How the data were processed

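Polyadenylated RNA of 1 control and 1 amiloride-treated HEK293T library was sequenced, and per the submitters' processing notes STAR 2.5.1 and hg19/GRCh37 were used. The authors compared both libraries with rMATS (version not given in the sources used here) and deposited 5 tables. The deposited FDR, an adjusted p-value, and the deposited inclusion level difference, treated as a score, were used unchanged. The 30 per-library columns of reads and levels and the raw p-values were not used, so depth is unknown.

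Events were grouped by the coordinates of the exon, so that forms of an exon with different ends count separately. Splice site scores used base frequencies at 300873 annotated 5′SS and 300290 3′SS (pseudocount 0.5). Exons were named by rule: the 4 largest called per class, 1 per gene; up to 8 negative ones; the 3 genes with most calls; up to 10 called events of other types. Other exons named in a gene, such as those of KMT2A, KDM1A, HDAC1, HDAC2, HDAC6, further exons of SETD5, HDAC3 and SIRT7, and the ninth negative exon, were chosen after their values were seen. Members and lists were chosen with earlier results of these data known. The values of 1 partner gene are not reported here. Grouping and intervals were checked on simulated tables. Alternatives were FDR thresholds of 0.05 and 0.01, a minimum size of 0.1, exons with 1 event, exons flanked by AG and GT, and, added after seeing the data, nearest flanking exons and leaving out HDAC3. Python 3.11.15, pandas 2.3.3, scipy 1.17.1, pysam 0.24.0 and matplotlib 3.10.9 were used.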

Additional observations from a re-analysis of the deposited data

How the results depend on the processing

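No paired analysis was possible because neither condition has a replicate, and no library could be left out. None of the summary values below changed sign under any alternative. Single exons did so in nearest events, among them HDAC3 exon 3 and SETD3 exon 6. At an FDR under 0.05, the share of exons called was 37.1% (32.3% over all exons), the 5′SS and 3′SS score differences were -0.50 and -0.50, and 1 alternative 3′SS event was left. At an FDR under 0.01, the shares were 32.2% in all (26.9% over all exons), 31.2% in lysine methyltransferases, 32.7% in demethylases and 33.9% in partner genes, 98.7% of calls were positive, the median difference was 0.131, the score differences were -0.57 and -0.39, and 1 alternative 3′SS event was left. With a size of at least 0.1, 170 exons (23.2%, 20.4% over all exons) were called: 22.3% in lysine methyltransferases, 19.6% in arginine methyltransferases, 17.3% in acetyltransferases, 21.4% in demethylases, 36.8% in deacetylases, 16.2% in sirtuins and 23.2% in partner genes. The median was then 0.189, the score differences -0.35 and -0.64, and 82 mutually exclusive, 7 alternative 5′SS and 1 alternative 3′SS events were left. Among exons with 1 event, 121 were called (31.4%, 25.3% over all such exons): 11.8% in arginine methyltransferases, 29.8% in demethylases, 31.4% in deacetylases and 29.9% in partner genes, with a median of 0.093 and score differences of -0.54 and -0.21. Between AG and GT the 5′SS difference was -0.43. With nearest flanking exons, added after seeing the data, the shares were 30.6% in all (27.1% over all exons), 33.5% in lysine methyltransferases, 16.1% in arginine methyltransferases, 32.7% in demethylases, 27.2% in deacetylases and 32.7% in partner genes, the median was 0.079, and the score differences were -0.49 and -0.029. Such events differ in the reads they use by construction. For the other changes the cause was not tested. Reads were not used, so what depth limits is unknown.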
